A study of Ambystoma mexicanum with 61 samples.

Results

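Among the gene models of the axolotl (Ambystoma mexicanum), 76 were examined that encode fibrinogen and other clotting proteins, complement proteins, serpins (serine protease inhibitors), apolipoproteins, the heavy chains of inter-alpha-trypsin inhibitor, and carrier proteins of blood plasma. Members were chosen by symbol alone. The symbol had to begin with SERPIN, ITIH, C1Q, C1R, C1S, AHSG, AMBP, HPX, KNG1 or APO followed by a letter from A to H, or to be that of a fibrinogen chain, a numbered clotting factor, a complement component after C1, a complement factor such as CFB, CFD or CFI, ALB or PLG. Of 23251 gene models, 76 met this rule, under 62 symbols, and 71 of the 76 had enough counts to be tested. No model with the symbol ALB or FGA was among them. The rule also took in 12 models that match by spelling, such as C1QBP, the C1QTNF genes and APOBEC2, and 10 serpins of other kinds, and both sets are described apart from the plasma proteins. Where several models carried one symbol, model 1 is the one with the most counts over all libraries.

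Poly(A) RNA had been sequenced from adult tissues of the d/d strain at 1 year of age. Metamorphosed axolotls, whose metamorphosis had been induced with thyroxine, gave 27 libraries from 15 tissues. Neotenic axolotls, which keep larval features as adults and had not been induced, gave 34 libraries from 17 tissues, among them gill and gonad, which had no metamorphosed counterpart here. Liver had 2 libraries in each state, and metamorphosed brain, forelimb and heart had 1. Library numbers are batches in the labels, and the study's methods describe several tissues taken from each animal, so that p-values measure the spread between these libraries.

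The plasma proteome of vertebrates is mostly a product of hepatocytes, the parenchymal cells of liver. Fibrinogen is cut by thrombin into fibrin, the mesh of a clot, and plasmin, made from plasminogen, dissolves it again. Complement is a cascade of proteases and pore-forming proteins that marks and lyses microbes, and serpins hold the proteases of both cascades in check. Apolipoproteins package lipid in liver and in intestine, and in amphibian metamorphosis, which is driven by thyroid hormone, many larval tissues are remodelled.

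Library totals ranged from 69278 to 27389476 counts, and the liver libraries held 10790826 and 27389476 counts in metamorphosed axolotls and 16053244 and 11430723 in neotenic axolotls. The labelled liver was checked with hepatocyte genes outside the set. Of 12 such genes measured, 11 were higher in liver than in the mean of the other tissues in metamorphosed axolotls and 12 of 12 in neotenic axolotls. Of all models, 11.7% and 11.2% were so. PCK1 passed in neotenic axolotls only, and was far below the cloacal chamber in both states. It had 3.72 and 19.5 CPM in metamorphosed liver and 26.3 and 2.98 CPM in neotenic liver. The cloacal chamber held means of 3113 and 3225 CPM. Exocrine pancreas genes, which mark another digestive gland, were higher in liver for 0 of 3 in metamorphosed and 3 of 3 in neotenic axolotls. Their levels differed between libraries of 1 state. CPA1, CELA1 and PRSS1 had 241, 309 and 654 CPM in neotenic liver library 1, against 82.5, 5.67 and 7.23 CPM in library 2. In metamorphosed liver they had 57.3, 2.43 and 3.08 CPM in library 1, against 89.2, 75.6 and 98.1 CPM in library 2. The metamorphosed skin library 1 was the shallowest of all, at 69278 counts. The libraries labelled neotenic stomach 2 and neotenic tail 2 each stood apart from the other library of their tissue. SERPINB5, a serpin of skin-type epithelium, was at 8.48 and 904 CPM in neotenic stomach and at 1010.1 and 16.3 CPM in neotenic tail (library 1 first; CPM values are counts relative to the library total, after TMM scaling for library composition). SERPINA1 model 1 was at 324 and 4.75 CPM in neotenic stomach and 8.65 and 389.5 CPM in neotenic tail, the opposite pattern. Both libraries were kept as labelled, and results without them are given where they differ.

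Liver gave these 76 models a share of its counts that no other tissue reached. They took 12.4% and 13% of the counts of the metamorphosed liver libraries, and 3.74% and 0.911% in metamorphosed intestine and 0.142% to 0.768% in the other 23 metamorphosed libraries. In neotenic axolotls they took 13.8% and 11.2% of the counts in liver, 4.66% and 3.55% in intestine and 0.0351% to 0.495% in the other 30 libraries. In this total, liver and intestine stood apart from the remaining tissues in both states, and the shares of metamorphosed and neotenic liver overlapped. Most of the intestine share came from apolipoproteins alone. They took 3.56% and 0.741% of the counts in metamorphosed intestine and 4.53% and 3.46% in neotenic intestine. A few members made up most of the share in liver. In the liver libraries, 3 to 7 members accounted for 50% of all member counts, and 18 to 22 members for 90%.

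**Figure D1:**
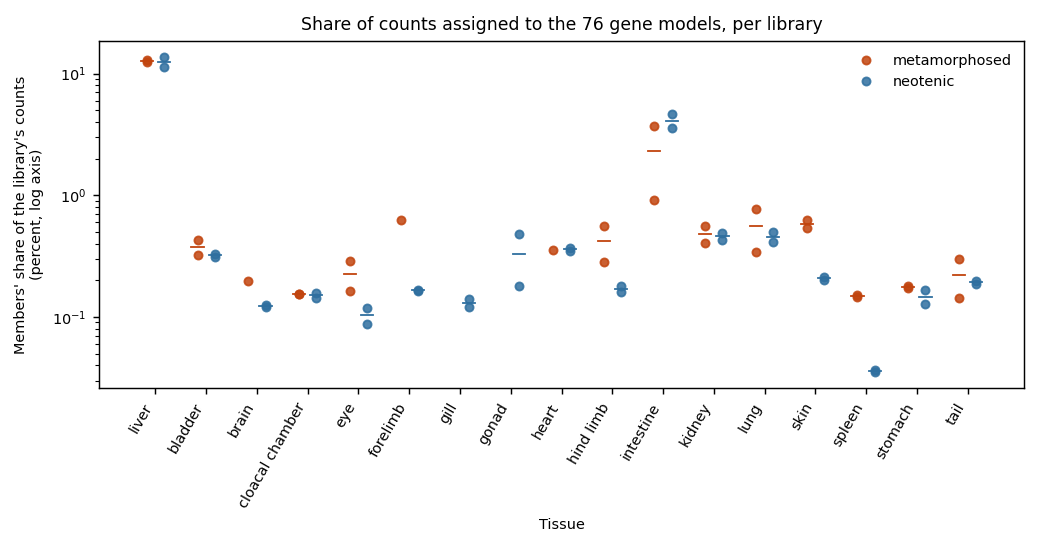
Share of each library's counts assigned to the 76 gene models (percent, log axis) by tissue, with metamorphosed libraries left of neotenic libraries and 1 point per library. The 4 liver points lie between 11.2% and 13.8%, the intestine points between 0.911% and 4.66%, and every other library is at 0.768% or less.

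Within each state, liver was set against the average of its other tissues. In metamorphosed axolotls, 44 of 71 members were higher in liver and 5 were lower (edgeR adjusted p under 0.05), where 11.7% of the 20216 gene models tested were higher and 3.40% lower. In neotenic axolotls, 45 of 71 were higher in liver and 3 were lower, where 11.2% of all models were higher and 3.99% lower. The median log2 fold change of the members was 5.65 in metamorphosed and 7.86 in neotenic axolotls, against 0.02 and -0.10 over all models tested. Liver was the tissue with the highest mean for 43 of the 76 members in metamorphosed axolotls, where it was so for 8.49% of all models, and for 43 in neotenic axolotls, where it was so for 6.45%. Both liver libraries were above every other library of the state for 40 members in metamorphosed axolotls (3.15% of all models) and for 39 in neotenic axolotls (3.17%). In bulk tissue, fewer cells of a type and less RNA per cell cannot be told apart. Leaving out liver library 1 or liver library 2 of a state left 44 members higher in each case, but only 1 lower in metamorphosed and 0 in neotenic axolotls. A tissue without a single count was part of the mean for 8 members in metamorphosed and 15 in neotenic axolotls, and the medians above were the same with these set to their bounds.

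**Figure D2:**
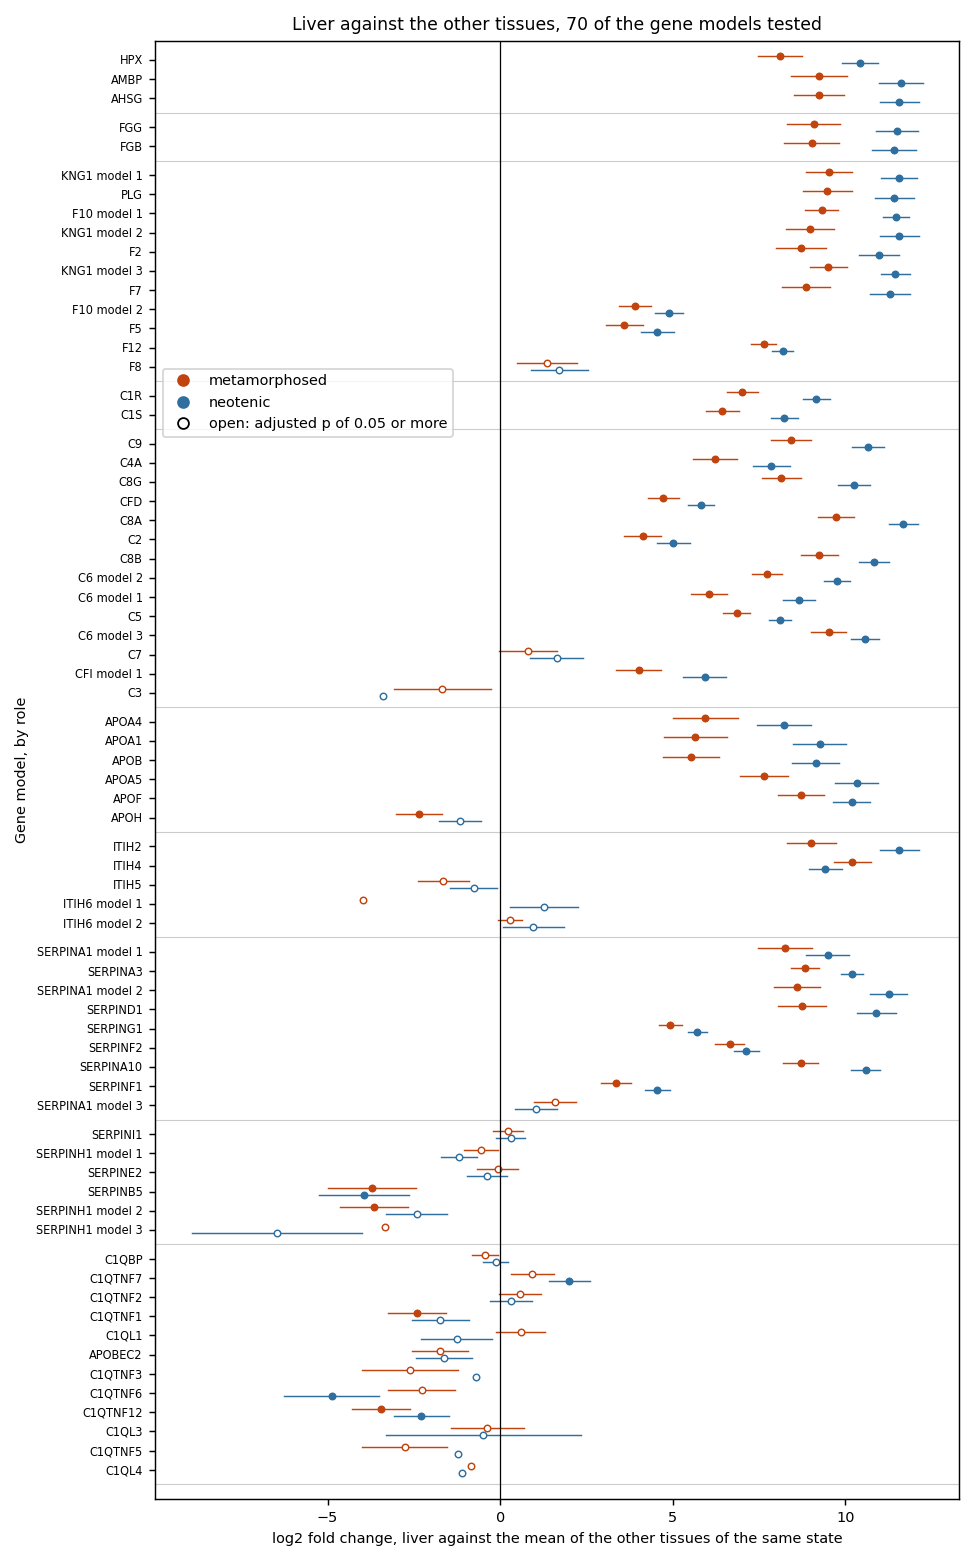
Log2 fold change of liver against the mean of the other tissues of the same state for 70 of the 71 gene models tested, grouped by role, with metamorphosed and neotenic values in separate colours. Bars are 1 standard error and are left out where the standard error is over 5, and open points did not pass the adjusted p threshold of 0.05. Carriers, fibrinogen, most clotting and complement proteins and plasma serpins lie far right of 0 in both states, and the serpins of other kinds and the models matched by spelling lie mostly near or below 0.

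Both fibrinogen chains found in the set were among the most abundant transcripts of liver. FGB, the beta chain, had 36139 and 67287 CPM in metamorphosed liver, against 35999 and 25202 CPM in neotenic liver. FGG, the gamma chain, had 34064 and 58650.5 CPM in metamorphosed liver, against 34109 and 23093 CPM in neotenic liver. On counts per kb of model length, scaled to the same total in each library, which allows levels of different genes to be compared, FGG had rank 3 and FGB rank 4 of all gene models in metamorphosed liver, and FGG rank 4 and FGB rank 7 in neotenic liver. Outside liver, no library held over 290 CPM of FGB in metamorphosed axolotls or over 64.6 CPM in neotenic axolotls, so that liver and the other tissues did not overlap. The log2 fold change of FGB in liver against the other tissues was 9.02 (SE 0.79) in metamorphosed axolotls (adjusted p = 3.56e-11) and 11.40 (SE 0.63) in neotenic axolotls (adjusted p = 6.82e-17). Both lie on 1 scaffold of the AmexG 3.0.0 assembly, with 1 other gene model between them (AMEXG_0030004705, FGG at 582335 to 648610 and FGB at 1151680 to 1262592).

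The 3 carrier and binding proteins were all higher in liver in both states. HPX encodes hemopexin, the plasma carrier of free heme, and had 12655 and 38742 CPM in metamorphosed liver, against 14835 and 9067 CPM in neotenic liver. Lung came next, with 389 and 1075 CPM in metamorphosed and 775 and 410.4 CPM in neotenic axolotls. AMBP, the precursor of alpha-1-microglobulin and of the light chain bikunin, had 8433 and 10791 CPM in metamorphosed liver, against 16891 and 9737 CPM in neotenic liver, and AHSG, fetuin-A, which binds calcium phosphate, had 7578 and 4954 CPM in metamorphosed liver, against 13787 and 6427 CPM in neotenic liver. For these 2 genes the highest library outside liver held 56.4 and 48.3 CPM in metamorphosed axolotls, and 28.2 and 19.0 CPM in neotenic axolotls. Their log2 fold changes in liver against the other tissues were 9.23 (SE 0.81) and 9.23 (SE 0.71) in metamorphosed axolotls and 11.60 (SE 0.64) and 11.56 (SE 0.57) in neotenic axolotls. These are among the steepest differences of the set, and liver and the other libraries did not overlap for any of the 3.

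Of the 11 models for clotting factors, plasminogen and kininogen, 10 were higher in liver in both states, and the median log2 fold change of the 11 was 8.85 in metamorphosed and 11.28 in neotenic axolotls. KNG1 model 1, a kininogen, the precursor of bradykinin, had 14718 and 9872 CPM in metamorphosed liver, against 9767 and 8961 CPM in neotenic liver, and the other 2 KNG1 models were also higher in liver in both states. The 3 KNG1 models lie with AHSG on 1 scaffold (AMEXG_0030000427, 359427 to 2736800). How alike the models of 1 symbol are in sequence was not tested, so that values of single KNG1 and SERPINA1 models are uncertain where reads fit more than 1 of them, as are those of the CFI, SERPINB6L, ITIH6 and SERPINH1 models that overlap another model of the same symbol on the opposite strand. PLG, plasminogen, had 10036 and 8533 CPM in metamorphosed liver, against 15418 and 8960.5 CPM in neotenic liver, and F2, prothrombin, had 3863 and 4985 CPM in metamorphosed liver, against 6471 and 3188 CPM in neotenic liver. F10 model 1, the protease that activates prothrombin, had 1401 and 1246 CPM in metamorphosed liver, against 2437 and 2283 CPM in neotenic liver, and no library outside liver exceeded 6.79 CPM in metamorphosed or 3.57 CPM in neotenic axolotls. The log2 fold changes in liver against the other tissues of KNG1 model 1, PLG and F10 model 1 were 9.53, 9.48 and 9.31 in metamorphosed axolotls and 11.55, 11.42 and 11.47 in neotenic axolotls. The other F10 model was less restricted, at 3.90 (SE 0.46) in metamorphosed and 4.89 (SE 0.40) in neotenic axolotls. It did not pass as higher in liver than in metamorphosed lung. F5, the cofactor of activated factor X, was also less restricted. It had 1498 and 726 CPM in metamorphosed liver, against 851 and 1081 CPM in neotenic liver, and 745 and 138 CPM in metamorphosed bladder and 534 and 413 CPM in neotenic bladder. F8, the cofactor of activated factor IX, made mainly by endothelium in mammals, was the exception among the 11. It had 5.51 and 5.18 CPM in metamorphosed liver, against 3.71 and 6.52 CPM in neotenic liver, and was highest in spleen in metamorphosed axolotls (18.5 and 26.5 CPM) and in heart in neotenic axolotls (15.6 and 9.97 CPM). Its log2 fold change in liver against the other tissues was 1.36 (SE 0.87) in metamorphosed axolotls (adjusted p = 0.351) and 1.71 (SE 0.83) in neotenic axolotls (adjusted p = 0.198).

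C1R and C1S, the proteases of the first complement component, were higher in liver in both states. C1R had 1125 and 1472 CPM in metamorphosed liver, against 2723 and 1146 CPM in neotenic liver, and its log2 fold change in liver against the other tissues was 7.01 (SE 0.46) in metamorphosed axolotls (adjusted p = 3.13e-14) and 9.15 (SE 0.39) in neotenic axolotls (adjusted p = 9.13e-20). Of the 14 tested models for later components and complement factors, 12 were higher in liver in both states. C9, the protein that polymerises into the membrane pore, was the most abundant of them, with 7054 and 5858 CPM in metamorphosed liver, against 10035 and 5479 CPM in neotenic liver. C8A, the alpha chain of C8, had 1283 and 885 CPM in metamorphosed liver, against 1439 and 1392 CPM in neotenic liver, and no library outside liver exceeded 4.60 CPM in metamorphosed or 2.78 CPM in neotenic axolotls. Its log2 fold change of 11.68 (SE 0.42) in neotenic liver against the other tissues was the largest of the 71 tested there, and it was 9.73 (SE 0.52) in metamorphosed axolotls. C8A and C8B were neighbours on 1 scaffold, as were C1S and C1R.

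Some complement genes had a second tissue close to liver. C2, the protease of the classical pathway convertase, had 1109.7 and 2132 CPM in metamorphosed liver, against 2306 and 1232 CPM in neotenic liver, and heart held 783 CPM in its single metamorphosed library and 1113 and 1230.2 CPM in neotenic axolotls. CFD, the protease factor D of the alternative pathway, had 268 and 1025 CPM in metamorphosed liver, against 1680.3 and 1069.9 CPM in neotenic liver, and lung held 237 and 209.6 CPM in metamorphosed and 846 and 775 CPM in neotenic axolotls. In pairwise tests, neither gene was higher in liver than in lung in either state. C7, which joins the pore complex after C6, was not higher in liver than in the mean of the other tissues. It had 32.9 and 10.3 CPM in metamorphosed liver, against 13.2 and 23.8 CPM in neotenic liver, and heart held 134 CPM in the metamorphosed library and 112 and 75.5 CPM in neotenic axolotls. The model named C3 held only 195 counts over all 61 libraries and spans 1295 bases, with 2 and 0 counts in metamorphosed liver and 0 and 0 in neotenic liver, which is too few to describe the central component of the cascade.

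**Figure D3:**
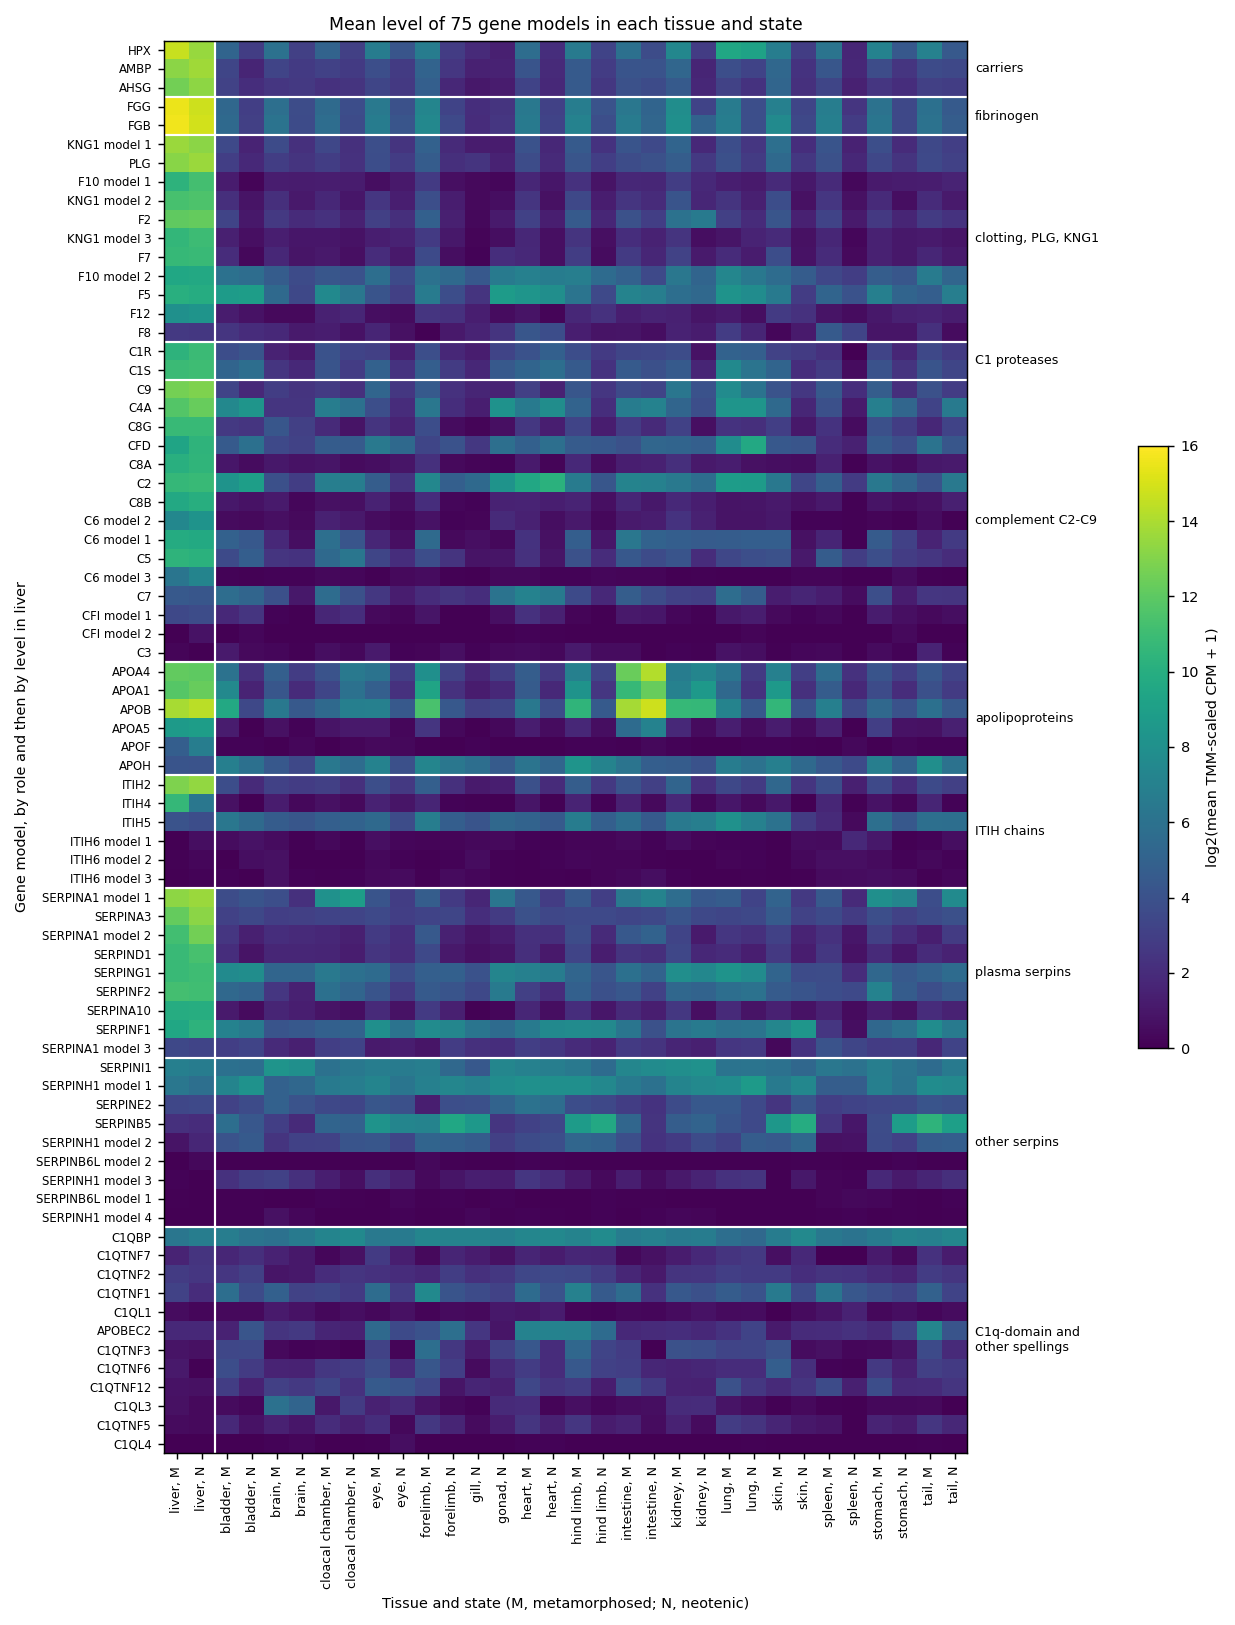
Mean TMM-scaled CPM of 75 of the 76 gene models (rows, by role and then by level in liver) in each tissue and state (columns, M metamorphosed and N neotenic, liver first), as log2(CPM + 1) on a colour scale that is brighter for higher levels. The liver columns are the brightest for most plasma proteins, intestine is close to liver for APOB, APOA1 and APOA4, and SERPINB5, APOH and ITIH5 are brighter in several other tissues than in liver.

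Apolipoproteins took their largest shares of counts in liver and intestine. Among metamorphosed libraries, the share was also 0.400% in skin library 2, 0.378% in the forelimb library, 0.338% in hind limb library 2 and 0.213% in bladder library 2. It was 0.107%, 0.0513% and 0.0227% in library 1 of skin, hind limb and bladder. Kidney held 0.302% and 0.130% in metamorphosed and 0.311% and 0.232% in neotenic axolotls. APOB, the scaffold protein of the large lipoproteins, had 21315 and 9092 CPM in metamorphosed liver, against 24397 and 16398 CPM in neotenic liver, and 25350.2 and 4286 CPM in metamorphosed intestine and 30981 and 24693 CPM in neotenic intestine. APOA4, a lipoprotein component linked to fat absorption in mammals, had 1289.6 and 7755 CPM in metamorphosed liver, against 5881 and 2322 CPM in neotenic liver, and 7726 and 2617 CPM in metamorphosed intestine and 17848 and 17907 CPM in neotenic intestine. Liver and intestine overlapped for both genes in metamorphosed axolotls, and in neotenic axolotls both liver libraries lay below both intestine libraries. Neither gene passed the test of liver against intestine in either state. Against the mean of all other tissues, APOB, APOA4, APOA1, APOA5 and APOF were all higher in liver in both states. APOF, an inhibitor of lipid transfer, was low outside liver, with 33.4 and 20.1 CPM in metamorphosed liver, against 117 and 97.9 CPM in neotenic liver, and no other library exceeded 0.671 CPM in metamorphosed or 0.547 CPM in neotenic axolotls. APOH, known as beta-2-glycoprotein I, ran the other way. It had 16.4 and 17.1 CPM in metamorphosed liver, against 15.1 and 16.4 CPM in neotenic liver, and 461 and 149.8 CPM in metamorphosed hind limb and 241 and 46.0 CPM in neotenic hind limb. Its log2 fold change in liver against the other tissues was -2.35 (SE 0.67) in metamorphosed axolotls (adjusted p = 0.0126), and -1.16 (SE 0.61) in neotenic axolotls (adjusted p = 0.253). The call of APOH in metamorphosed axolotls was lost whether liver library 1 or liver library 2 was left out.

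The heavy chains of inter-alpha-trypsin inhibitor, which in mammals are joined to bikunin and passed on to hyaluronan, were split. ITIH2 had 6908 and 8428 CPM in metamorphosed liver, against 14963 and 6869 CPM in neotenic liver, with no other library over 56.4 CPM in metamorphosed or 10.9 CPM in neotenic axolotls. Its log2 fold change in liver against the other tissues was 9.01 (SE 0.71) in metamorphosed axolotls (adjusted p = 2.18e-12) and 11.55 (SE 0.56) in neotenic axolotls (adjusted p = 2.20e-18). ITIH4, an acute-phase protein in mammals, was also high in liver over other tissues, with 2379 and 889 CPM in metamorphosed liver, against 56.9 and 107 CPM in neotenic liver, and its log2 fold change in liver against the other tissues, 10.20 (SE 0.53), was the largest of the 71 tested in metamorphosed axolotls. ITIH5, in contrast, had 14.6 and 17.8 CPM in metamorphosed liver, against 16.7 and 8.93 CPM in neotenic liver, and was highest in lung, with 166 and 386 CPM in metamorphosed and 111 and 151 CPM in neotenic axolotls. Both liver libraries lay below both lung libraries in each state, and ITIH5 passed the test as lower in liver than in lung, although its difference from the mean of the other tissues did not pass. The 3 short ITIH6 models reached 3.56 CPM at most in any library.

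Among the 9 models of secreted plasma serpins, 8 were higher in liver in both states, with a median log2 fold change of 8.24 in metamorphosed and 9.48 in neotenic axolotls over the 9. SERPINA1 model 1, alpha-1-antitrypsin, the inhibitor of neutrophil elastase, had 8889.6 and 10927 CPM in metamorphosed liver, against 16202 and 9005 CPM in neotenic liver. Its next tissue was the cloacal chamber, with 188 and 351 CPM in metamorphosed and 511 and 441 CPM in neotenic axolotls. Its log2 fold change in liver against the other tissues was 8.24 (SE 0.78) in metamorphosed axolotls (adjusted p = 2.07e-10) and 9.48 (SE 0.62) in neotenic axolotls (adjusted p = 7.17e-15). The plasma serpin that did not pass was another SERPINA1 model, at 1.58 (SE 0.60) in metamorphosed and 1.04 (SE 0.62) in neotenic axolotls. SERPINF1, a serpin without protease inhibition, was the least restricted of the 8, with 613 and 895 CPM in metamorphosed liver, against 1704 and 911 CPM in neotenic liver and 105 and 213 CPM in metamorphosed skin and 335 and 355 CPM in neotenic skin.

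None of the 7 tested serpins of other kinds was higher in liver. SERPINI1, neuroserpin, the most abundant of them in liver, had 101 and 137 CPM in metamorphosed liver, against 116 and 90.2 CPM in neotenic liver, with 313 CPM in the metamorphosed brain library and 269 and 227 CPM in neotenic brain, and 279.8 and 206 CPM in metamorphosed kidney and 229 and 304 CPM in neotenic kidney. SERPINB5, known as maspin, had 0.324 and 7.16 CPM in metamorphosed liver, against 3.84 and 2.27 CPM in neotenic liver, and 564 and 157 CPM in metamorphosed skin and 893 and 1036 CPM in neotenic skin. It was lower in liver than in the other tissues by a log2 fold change of -3.71 (SE 1.28) in metamorphosed axolotls (adjusted p = 0.0434) and -3.95 (SE 1.31) in neotenic axolotls (adjusted p = 0.0336). SERPINH1 model 1, a collagen chaperone, had 65.3 and 93.8 CPM in metamorphosed liver, against 66.8 and 44.3 CPM in neotenic liver, and 207 and 229 CPM in metamorphosed lung and 381 and 475 CPM in neotenic lung. The models matched by spelling were also not liver genes as a group. Of 12, none was higher in metamorphosed liver and 1, C1QTNF7, was higher in neotenic liver, and 2 were lower in each state. C1QTNF12, an adipokine-like protein in mammals, was lower in both, with log2 fold changes of -3.45 (SE 0.85) and -2.29 (SE 0.80) in metamorphosed and neotenic axolotls (adjusted p = 0.00339 and 0.0492). The lower calls of SERPINB5, C1QTNF12 and C1QTNF6 in neotenic liver were lost whether its library 1 or its library 2 was left out, and in metamorphosed axolotls that of SERPINB5 was lost without liver library 1 and that of C1QTNF12 without liver library 2. C1QBP, a mitochondrial protein, had 41.0 and 112 CPM in metamorphosed liver, against 129 and 88.0 CPM in neotenic liver and no change past the test. APOBEC2, a muscle protein, was highest in heart in neotenic axolotls, with 146 and 128 CPM. In metamorphosed axolotls the heart library had 134 CPM. Metamorphosed tail held 321 and 1412 counts of it (library totals 4530792 and 10747242), and metamorphosed hind limb 1032 and 403 counts (6196211 and 16167950).

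Liver was then set against each other tissue in turn. In metamorphosed axolotls, the number of members higher in liver ran from 36 of 71 against lung to 44 against spleen (edgeR adjusted p under 0.05), where 4.33% and 6.49% of all models were higher in liver, with a median of 41 members over the 11 tissues that had 2 libraries. It was 37 against bladder and against intestine (5.07% and 4.21% of all models), and 40 against hind limb and against skin (5.32% and 8.65%). Against kidney it was 41 (4.17%), against eye and stomach 42 (6.03% and 5.18%), against the cloacal chamber also 42 (1212 of the 20216 models), and against tail 43 (5.19%). In neotenic axolotls the number ran from 38 against intestine to 47 against spleen, where 5.23% and 9.90% of all models were higher in liver, with a median of 43 members over 16 tissues. It was 39 against lung (5.83%), 40 against bladder and the cloacal chamber (6.04% and 6.24%), 41 against heart and kidney (6.64% and 5.41%) and 42 against gonad (7.24%). Against skin and tail it was 43 (5.75% and 5.68%), against eye, forelimb and hind limb 44 (10.0%, 6.79% and 7.17%), and against brain, gill and stomach 45 (14.8%, 6.80% and 5.36%). Intestine and lung were thus at the lower end in both states, and spleen at the upper end. In each state, 33 of 71 members were higher in liver than in every tissue tested. The share of all models that were so was not counted. It cannot exceed the smallest share against a single tissue, 4.17% in metamorphosed and 5.23% in neotenic axolotls. No p-value was computed against metamorphosed brain, forelimb and heart. The members that were not higher against every tissue included APOA1, APOA4, APOA5 and APOB, whereas APOF was higher against all of them in both states. In metamorphosed axolotls APOA1, the main protein of high-density lipoprotein, did not pass as higher in liver than in bladder, hind limb, intestine, kidney, lung and skin. In neotenic axolotls it did not pass against the cloacal chamber, intestine and kidney. This does not mean similar levels. APOA1 had 6612 and 71328 counts in metamorphosed liver, against 4 and 153 in lung, 90 and 8696 in bladder and 127 and 8701 in hind limb. The totals of these libraries were 10790826 and 27389476 in liver and 9921174 and 1604880 in lung. They were 8632320 and 23879780 in bladder and 6196211 and 16167950 in hind limb. With the replicate block nested in state, APOA1 also passed against metamorphosed bladder, hind limb and lung and against the neotenic cloacal chamber. Where liver was the highest tissue and the next held over 3 counts in a library, liver exceeded it by a median of 58.0-fold in metamorphosed axolotls (42 members, 1.03-fold to 639-fold) and 107-fold in neotenic axolotls (39 members, 1.51-fold to 1521-fold).

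A list of further plasma and clotting genes that the rule left out was read beside the members. Of 28 tested, 19 were higher in metamorphosed liver and 18 in neotenic liver, where 11.7% and 11.2% of all models were higher. None was lower in either state (3.40% and 3.99% of all models). The median log2 fold change of the 28 in liver against the other tissues was 6.01 in metamorphosed and 6.45 in neotenic axolotls. TTR and VTN are also among the 12 hepatocyte genes by which the labelled liver was checked. VTN, vitronectin, an adhesive plasma protein, was among the most abundant, with 13738 and 15288 CPM in metamorphosed liver, against 12945 and 8118 CPM in neotenic liver. VWF, the platelet adhesion protein of endothelium, did not pass the test in either state, like F8.

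Metamorphosed liver was compared with neotenic liver next. No member passed the test in edgeR (of 71, 2 higher and 1 lower at an unadjusted p under 0.05), where 0.00989% of all models were higher and 0.00989% lower (2.27% and 1.03% unadjusted). DESeq2 called 1 member higher and 0 lower, with 0.297% of all models higher and 0.143% lower. The median log2 fold change of the members was -0.13, against 0.06 over all models. The libraries of the states did not overlap for 9 members that were higher and 14 that were lower in metamorphosed liver, where 14.5% of all models were higher and 10.6% lower without overlap. The standard errors of the most abundant members were about as large as their differences or larger. FGB had a log2 fold change of 0.76 (SE 1.42) in metamorphosed against neotenic liver, and the log2 fold changes of FGG, HPX and PLG were 0.70 (SE 1.37), 1.10 (SE 1.18) and -0.39 (SE 1.26).

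ITIH4 was the member with the smallest p. It had 2379 and 889 CPM in metamorphosed liver, against 56.9 and 107 CPM in neotenic liver, so that both metamorphosed libraries lay far above both neotenic libraries. The log2 fold change was 4.32 (SE 1.03) (edgeR adjusted p = 0.198), which did not pass the threshold. With the batch number of the labels as a replicate block shared by both states, the log2 fold change was 4.72 (edgeR adjusted p = 0.0299). With the block nested in state, the fit compares the states at the level of their libraries numbered 1. It gave 4.98 (edgeR adjusted p = 0.00628), which is not an estimate over both libraries. DESeq2 gave 4.39 with an adjusted p of 0.0379. Of the other members with large fitted differences, none passed the test in edgeR, and ITIH6 model 1, C1QTNF6 and C3 were rare. ITIH6 model 1 had no count in metamorphosed liver and 7 in neotenic liver, at least 2.92-fold lower against a limit of 3 counts over the group. C1QTNF6, a C1q-domain protein, had 1.30 and 0.905 CPM in metamorphosed liver, against 0.132 and 0 CPM in neotenic liver (edgeR adjusted p = 1). APOF had 33.4 and 20.1 CPM in metamorphosed liver, against 117 and 97.9 CPM in neotenic liver, without overlap, with a log2 fold change of -2.01 (SE 1.11) (adjusted p = 1). SERPINA3, an alpha-1-antichymotrypsin relative, had a smaller difference, also without overlap. It had 6053 and 3563 CPM in metamorphosed liver, against 10024 and 9055 CPM in neotenic liver, with a log2 fold change of -0.99 (SE 0.73). C3, with 2 and 0 counts in the metamorphosed and 0 and 0 in the neotenic liver libraries, was at the floor in both states and is given no fold change.

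**Figure D4:**
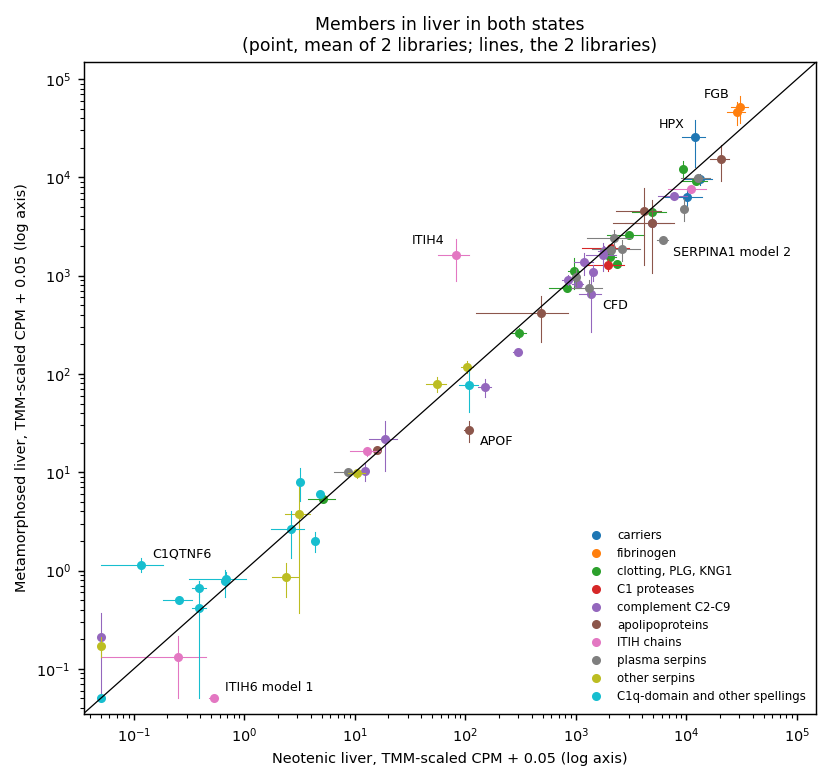
TMM-scaled CPM plus 0.05 of 70 of the 71 gene models tested in metamorphosed liver (vertical, log axis) and neotenic liver (horizontal, log axis), coloured by role, each point the mean of 2 libraries and the lines the 2 libraries. Most points follow the diagonal, and ITIH4 lies above it, at 2379 and 889 CPM in metamorphosed liver against 56.9 and 107 CPM in neotenic liver.

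Outside liver, the states were compared in the 11 tissues with 2 libraries per state. The median log2 fold change of the members, metamorphosed against neotenic, was above 0 and above the median of all models in each of the 11, from 0.43 in the cloacal chamber (all models 0.02) and 0.46 in lung (-0.04) to 1.73 in skin (-0.39), 1.81 in hind limb (0.17) and 2.40 in spleen (0.17). The rise was not seen in both libraries of every tissue. Metamorphosed libraries were higher without overlap for 8 of 71 members in lung (14.6% of all models) up to 48 in spleen (30.5%). In tail it was 12 (17%) and in the cloacal chamber 11 (13%). FGB and FGG summed to 6.23 and 414 CPM in metamorphosed lung libraries 1 and 2, against 34 and 19.7 CPM in neotenic lung. In tail the sums were 8.08 and 236 CPM, against 55.4 and 38.5 CPM. Few single members passed the test. In metamorphosed skin, 7 of 71 members were higher than in neotenic skin and none was lower, where 2.21% of all models were higher and 2.68% lower (unadjusted, 27 members higher and 2 lower, against 9.63% and 13.4% of all models). DESeq2 called 24 members higher and 1 lower, and 5.15% of all models higher and 3.84% lower. APOB had 379 and 2720.0 CPM in metamorphosed skin, against 22.7 and 7.91 CPM in neotenic skin, and its log2 fold change was 6.67 (SE 2.01) (adjusted p = 0.0482). This call was lost with the replicate block (log2 fold change 6.59, or 4.30 nested in state) and whenever 1 of the 4 liver libraries was left out of the joint model (6.71 in each case). C6 model 1, a pore component, had 8.06 and 44.2 CPM in metamorphosed skin, against 0.775 and 0.471 CPM in neotenic skin, with a log2 fold change of 5.65 (SE 1.30) (adjusted p = 0.0184). Metamorphosed skin lay above neotenic skin in every library for both. In bladder and hind limb, APOB rose mainly in metamorphosed library 2, and passed in DESeq2 but not in edgeR. It had 338 and 37106 counts in metamorphosed bladder (library totals 8632320 and 23879780), against 117 and 91 in neotenic bladder (7288203 and 11073882). In hind limb it had 716 and 40651 counts in metamorphosed axolotls (6196211 and 16167950), against 416 and 63 in neotenic axolotls (15230581 and 10642542). VIL1, CDX1 and CDX2, genes of intestinal cells, summed to 7.34 and 84.1 CPM in metamorphosed bladder, against 7.97 and 7.24 CPM in neotenic bladder. The cause of the rise of APOB was not tested. F5 had 96.7 and 89.5 CPM in metamorphosed skin, against 5.04 and 7.35 CPM in neotenic skin, and C5, the precursor of the anaphylatoxin C5a, had 16.1 and 12.6 CPM in metamorphosed skin, against 1.16 and 1.13 CPM in neotenic skin, also without overlap. ITIH5 and C1QTNF1 rose as well, and ITIH4 had 0 and 16 counts in the 2 metamorphosed and 0 and 0 in the 2 neotenic skin libraries, at least 9.29-fold higher against 3 counts over the group. In the metamorphosed skin library 1, 3 counts correspond to 43.3 CPM before TMM scaling. Its values of C6 model 1 and C5 rest on fewer than 3 counts, so that their lack of overlap with neotenic skin is weak. The calls in skin rest in part on this library of 69278 counts. Without it 6 members were higher (2.74% of all models), and without the stomach and tail libraries that stand apart 11 were higher (3.00%). With the replicate block 7 members were higher and 1 was lower (2.24% and 2.88% of all models), where the call of C6 model 2 was gained. The block nested in state compares the states at library 1, which in metamorphosed skin is the shallow library. With it 3 members were higher and 1 lower (0.826% and 2.25%), where the calls of F5, ITIH5 and C1QTNF1 were lost.

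In spleen, C1R alone was higher in metamorphosed axolotls, where 0.287% of all models were higher and 0.203% lower (unadjusted, 24 higher and 0 lower of 71, against 7.07% and 2.48%), and DESeq2 called 5 members higher, with 1.19% of all models higher and 0.806% lower. It had 4.02 and 3.75 CPM in metamorphosed spleen and no count in neotenic spleen, at least 16.5-fold higher against 3 counts over the group (edgeR adjusted p = 0.0443). In the other 9 tissues no member passed the test in edgeR, and DESeq2 called members only in hind limb (8 higher), kidney and intestine (2 each), bladder (2 higher, 1 lower), eye and cloacal chamber (1 each), tail (1 higher, 1 lower) and stomach (1 lower), and none in lung. The lower members were SERPINB5 in stomach and SERPINA1 model 1 in tail, the genes by which the neotenic libraries of these tissues stood apart, and APOBEC2 in bladder. The call in the cloacal chamber was a C1QTNF gene with 0 and 2 counts in metamorphosed and 0 and 0 in neotenic libraries. The same gene was 1 of the 2 calls in intestine, with 2 and 91 counts against 0 and 0. In edgeR, 0.322% of all models were called higher and 0.277% lower in hind limb, and 0.361% and 0.356% in tail. The edgeR shares were 0.00495% and 0.00% in bladder, and 0.00% in each direction in the other 6. These are not the background of the DESeq2 calls, for which no share of all models is given in these 9 tissues. In spleen, DESeq2 called more of all models higher than edgeR did (1.19% against 0.287%). At an unadjusted p under 0.05, 21 members were higher and 0 lower in metamorphosed hind limb, where 11.9% and 6.43% of all models were so. In metamorphosed kidney 15 were higher and 0 lower (1.73% and 1.37% of all models), and in eye 14 and 0 (5.12% and 1.30%). Bladder had 9 and 2 (6.04% and 2.01%), stomach 8 and 2 (2.97% and 5.71%), tail 6 and 3 (5.85% and 5.88%), intestine 5 and 0 (6.61% and 1.52%), lung 0 and 1 (1.37% and 1.71%), and the cloacal chamber 0 and 1 (1.28% and 0.866%).

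The most abundant liver transcripts of the set were followed in the other tissues as well. The sum of FGB and FGG outside liver was 6.23 to 534 CPM in 25 metamorphosed libraries (median 184 CPM) and 4.79 to 124 CPM in 32 neotenic libraries (median 19.7 CPM). The ranges overlap. Among the metamorphosed libraries, those numbered 1 had a median of 148 CPM (14 libraries) and those numbered 2 a median of 236 CPM (11 libraries). Metamorphosed eye held 7.73 and 375 CPM in libraries 1 and 2, against 30.7 and 33.1 CPM in neotenic eye, and metamorphosed kidney held 420 and 534 CPM, against 38.9 and 40.7 CPM in neotenic kidney. In liver the same sum was 70203 and 125938 CPM in metamorphosed and 70108 and 48295 CPM in neotenic axolotls. The summed level of 12 hepatocyte genes outside the set was 371 and 231 CPM in metamorphosed skin, against 746 and 515 CPM in neotenic skin, and 161 and 544 CPM in metamorphosed spleen, against 369 and 362 CPM in neotenic spleen. In hind limb it was 324 and 269 CPM in metamorphosed and 354 and 269 CPM in neotenic axolotls. The median log2 fold change of the 12 genes, metamorphosed against neotenic, was 2.41 in skin, 1.89 in spleen and 2.29 in hind limb, beside medians of 1.73, 2.40 and 1.81 for the members. The part of hepatocyte RNA in these values was not tested.

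**Figure D5:**
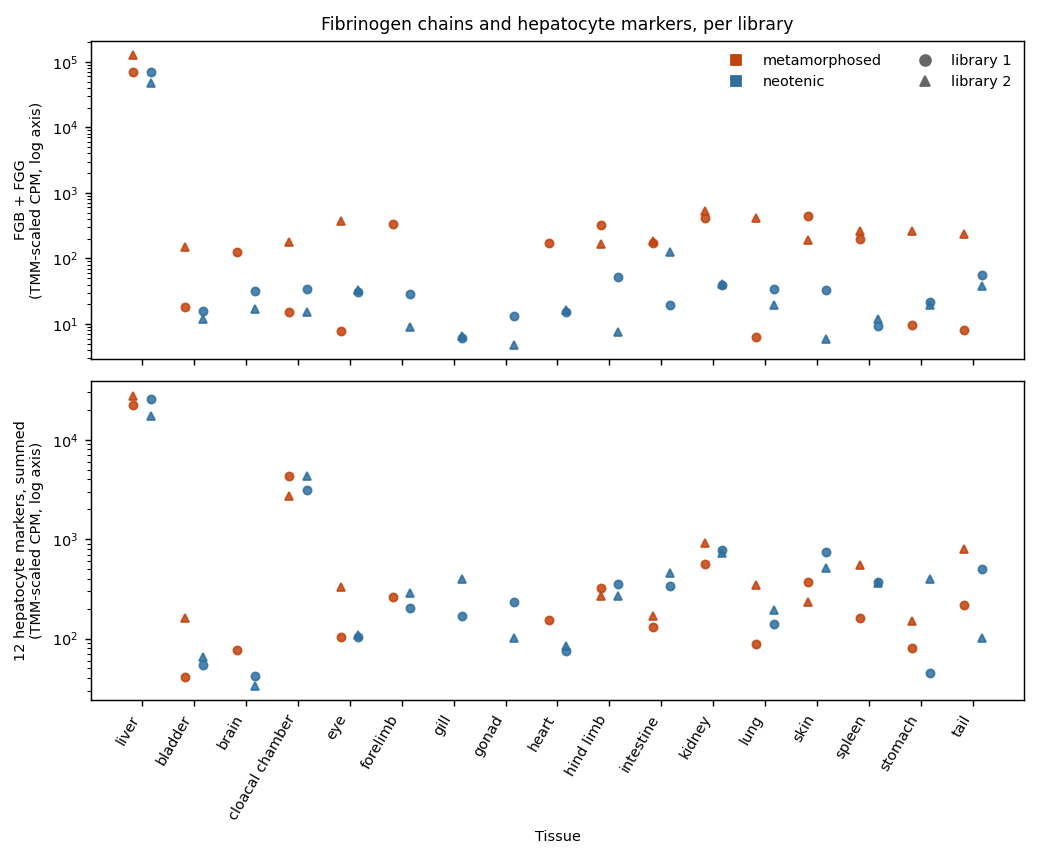
Summed TMM-scaled CPM of FGB and FGG (upper panel) and of 12 hepatocyte genes outside the set (lower panel), by tissue on a log axis, liver first and metamorphosed libraries left of neotenic libraries, with library 1 and library 2 as different markers. Fibrinogen is at 48295 CPM or more in liver and at 534 CPM or less elsewhere, and in metamorphosed bladder, cloacal chamber, eye, lung, stomach and tail library 1 is far below library 2.

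Finally, the difference between the states in liver was tested against the mean difference in the 11 other tissues. No member passed the test in edgeR (0 higher and 3 lower of 71 at an unadjusted p under 0.05, against 1.05% and 1.23% of all models), nor did any other gene model (0.00%), and DESeq2 called 0 members in each direction. The median of the members was -1.25, against 0.10 over all models, which is the difference of the state effect in liver minus that in the other tissues on the log2 scale. The 3 members at an unadjusted p under 0.05 were C1R, C1S and C6 model 2, with differences of -2.36 (SE 0.93), -2.05 (SE 0.97) and -2.03 (SE 0.90) (adjusted p = 1 for each).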

How the data were processed

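The authors counted read pairs per gene model with featureCounts 1.6.0 on the AmexG 3.0.0 annotation (per the file headers, with no strand option), and deposited whole-number counts per library, which were used unchanged. The submitters' processing notes also name STAR and DESeq2, and the role of each for these files is not given in the sources used here. Members and gene lists were chosen with earlier results of these data known.

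All 61 libraries entered 1 model in edgeR 4.0.16 (R 4.3.3), with TMM scaling, filterByExpr (20216 of 23251 models tested), 1 coefficient per state and tissue, quasi-likelihood tests and Benjamini-Hochberg adjustment over all models tested, at a threshold of 0.05. The state of a tissue with 1 library was not tested. The fits were tested on simulated data. Alternatives were DESeq2 1.42.0, its size factors, no filter, a fold minimum, the replicate block, summed models, fewer libraries and each liver library left out. Tables and plots were made in Python 3.11.15 with numpy 2.4.6, pandas 2.3.3 and matplotlib 3.10.9. RefSeq lists 49 of the 62 member symbols for another axolotl assembly.

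The labels call the library numbers batches, and the study's methods describe tissues paired with its single-cell experiments. The numbers were taken to pair libraries of 1 state. Deviations of libraries with the same number correlated between tissues with a median of 0.31 in metamorphosed axolotls (66 tissue pairs, 58 over 0.1) and 0.10 in neotenic axolotls (136 pairs, 69 over 0.1). For the same tissue across the states the median was -0.05 (12 tissues, 3 over 0.1). The replicate block shared by the states treats a number as 1 batch in both. The block nested in state does not, and its differences between the states are those at library 1.

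Named members were FGB, FGG and the most abundant member of each role in liver, the 5 largest liver differences per state among those with at least 1 CPM in both liver libraries, the 5 largest differences between liver states, up to 2 changes in each direction per other tissue, up to 2 members per role highest outside liver, and up to 3 lower in liver in both states. F2, F5, C2, C5, CFD, C1S, C8B, SERPINF1, SERPINA3, APOA1, APOA5, APOH, C1QTNF1, C1QTNF7, C6 model 2, VTN, VWF and SERPINE2 were chosen after their values were seen. The values of 1 member are not reported here, although it enters the counts and sums over the set. Intervals and limits from counts cover counting error only.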

Additional observations from a re-analysis of the deposited data

How the results depend on the processing

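The count of members higher in liver stayed within 1.5 times under every alternative run. The fewer lower calls did not. No share of all models is given here for the lower calls under the alternatives. In metamorphosed axolotls, 5 were lower, against 8 with DESeq2 and 1 when either metamorphosed liver library was left out. In neotenic axolotls, 3 were lower, against 7 with DESeq2, 5 with the replicate block nested in state and 0 when either neotenic liver library was left out. The median number lower against single tissues was 3 in metamorphosed axolotls, against 5 with DESeq2 and 0 to 1 with a liver library left out, and 3.5 in neotenic axolotls, against 0 to 1 with a liver library left out. Between the states in liver, 1 member was higher with DESeq2, with the replicate block and with the block nested in state, against 0 without. Between the states, the nested block compares the libraries numbered 1. Over the 11 other tissues, 8 calls were higher and 0 lower, against 46 and 4 with DESeq2, 13 higher without the stomach and tail libraries that stand apart, 1 lower with the replicate block (SERPINE2 in skin), and 4 higher and 2 lower with the block nested in state. DESeq2 also called more of all models higher than edgeR did, 5.15% against 2.21% in skin and 1.19% against 0.287% in spleen. For the 11 tissues together no share of all models is given. Of the 1217 member calls of liver against single tissues, the replicate block lost 2 and added 14, and the nested block lost 0 and added 46, and of the 97 calls against the average of the other tissues these lost 0 and added 2 and 3. Between the states, the pairing lost or added no member call outside liver, skin and spleen. No value of a named member changed direction under any alternative, and each alternative moved at most 4 of up to 93 such values across the threshold. With DESeq2 size factors in place of TMM, the all-model median between the states shifted on the log2 scale by -0.18 in eye, -0.13 in spleen, 0.11 in hind limb and 0.14 in skin, and that of liver against brain by -0.26 in metamorphosed and -0.41 in neotenic axolotls. The cause of these changes was not tested. With 2 libraries per group, and 69278 counts in the shallowest, small differences were not detectable. Large differences between the states could also fail the test. ITIH4 in liver had a log2 fold change of 4.32 (SE 1.03) and did not pass (edgeR adjusted p = 0.198).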
